A study of Mus musculus with 4 samples.

Results

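The levels of 7 receptor genes that pass costimulatory signals into T cells were followed through CD8+ T cells of the BM: Tnfrsf9, Tnfrsf4, Tnfrsf18, Tnfrsf1b, Cd27, Cd28 and Icos. They were chosen by symbol, and all 7 were found among the 17561 genes of the expression table. The cells were sorted 4 weeks after SCT from female mice bearing the Vk12653 myeloma, on a C57BL/6 background and either WT or transgenic for a cereblon gene (CRBN) modified so that lenalidomide degrades Ikaros and Aiolos, and the labels do not say which group held which. Grafts held BM and T cells from donors of matching genotype. The 4 treatment groups were control Ig (cIg) with vehicle, αTIGIT antibody with vehicle, cIg with lenalidomide, and αTIGIT with lenalidomide, with antibody starting at transplant and lenalidomide on day 14. Each group was 1 library of 5 pooled mice harvested on day 28, so differences between mice cannot be seen in these data.

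The cell table numbers the libraries 1 to 4, and the sources used here do not say which treatment each number had. No comparison of treatments was therefore made, and libraries are described by number. Because the 8 clusters were drawn by the authors from the same expression values, differences between clusters are descriptions with no test. All intervals are 95% intervals of counting error alone.

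T cells need a costimulatory signal beside that of the TCR. CD28, bound by CD80 and CD86 on antigen-presenting cells, and its relative ICOS, bound by ICOSL, signal through PI3K and adaptor proteins. The other members are TNF receptors: 4-1BB (Tnfrsf9), OX40 (Tnfrsf4), GITR (Tnfrsf18), TNFR2 (Tnfrsf1b) and CD27. They bind trimeric ligands, recruit TRAF proteins and activate NF-κB, which favors survival and division. Naive T cells carry CD27 and CD28, whereas 4-1BB, OX40 and ICOS are known as receptors induced by activation, and 4-1BB marks T cells that have recently met antigen.

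The members lie on 3 chromosomes of GRCm38 (mm10) in the GENCODE M21 annotation. On chromosome 4 are Tnfrsf1b at chr4:145213463-145246870 on the minus strand, Tnfrsf9 at chr4:150914562-150946102, Tnfrsf4 at chr4:156013843-156016612 and Tnfrsf18 at chr4:156026164-156028895 on the plus strand. Tnfrsf4 and Tnfrsf18 are neighbors on the same strand with 9.55 kb between them. Cd27 is at chr6:125232622-125237010 on the minus strand. Cd28 at chr1:60716800-60773359 and Icos at chr1:60977927-61000320 are on the plus strand with 205 kb between them. RefSeq start sites (GRCm38.p6) were at hand for 5 members in 6 windows, with a pair of starts for Tnfrsf9 that both lie inside its GENCODE span. The 250 bases before the start are shown for the members with the largest ratios between effector and naive cells, Tnfrsf9 and Tnfrsf4, 5′ to 3′ on the plus strand, and capitals mark a match to GGAAAA, the core bound by NFAT, read here on the opposite strand.
Tnfrsf9, chr4:150919905-150920154: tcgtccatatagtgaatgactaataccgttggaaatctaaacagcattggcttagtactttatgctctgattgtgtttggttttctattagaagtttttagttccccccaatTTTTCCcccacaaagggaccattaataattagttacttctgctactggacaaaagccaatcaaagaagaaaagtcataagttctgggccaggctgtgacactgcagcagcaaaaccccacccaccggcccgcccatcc
Tnfrsf4, chr4:156013445-156013694: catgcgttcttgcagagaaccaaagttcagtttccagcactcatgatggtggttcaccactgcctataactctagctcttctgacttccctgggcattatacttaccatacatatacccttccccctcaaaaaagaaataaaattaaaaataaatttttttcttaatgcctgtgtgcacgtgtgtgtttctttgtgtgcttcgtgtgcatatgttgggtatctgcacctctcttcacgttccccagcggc
The downstream start of Tnfrsf9 had an AP-1 match, TGANTCA, within the 30 bases before it, shown with the match in capitals.
Tnfrsf9, chr4:150927969-150927998: gaggccctgctcagtTGAGTCAcaggtcct

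Both strands of each window were searched for the NF-κB motif (3 G, then 5 bases of any kind, then 2 C), TGANTCA (AP-1) and GGAAAA (NFAT). The NF-κB letters were found at the downstream Tnfrsf9 start (2 matches), Tnfrsf1b (3) and Cd27 (2), and 45.8% of all 32851 windows held them. The AP-1 letters were found in the downstream Tnfrsf9 window alone among the 6, against 6.75% of all windows. The NFAT letters were found once each at the upstream Tnfrsf9 start, Tnfrsf18 and Cd27, against 20.4% of all windows. The window of Tnfrsf4 held none of these letters. A match is a description of the letters and not a bound site.

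The table held 11754 cells, 1725 to 4237 per library, and 15556967 to 38440687 UMIs per library. Median UMIs per cell ran from 5545 in transitory Teff to 13959.5 in cycling cells. The fewest cells of a cluster in a library were 31 TIM-3+ Tex cells in library 3. Barcodes present in more than 1 library numbered 56. Summed over 6 CD8+ T cell genes, levels were 3684 to 8711 CPM (UMIs of a gene per 1e+06 UMIs) in every cluster and library. Cd4 stayed at or below 1.53 CPM and Foxp3, which marks Tregs, at or below 1.99 CPM in each cluster. The B and plasma cell genes summed to 62.1 to 569 CPM over clusters and libraries. The 14 macrophage genes summed to 1754 to 2481 CPM in the GzmA+ Tex libraries and to 16.8 to 333 CPM elsewhere. The 5 CD4 and Treg genes summed to at most 31.9 CPM in any cluster and library. In the cluster named Tcm, Cd8b1 stood at 217 CPM against 934 to 1327 CPM in the others, and 5 NK genes summed to 337 to 451 CPM. TIGIT+ Teff had 6564 CPM of the nuclear RNA Malat1, against 2271 to 2984 CPM elsewhere. Of all cells, 837 (7.12%) bear a deposited cluster number that mostly belongs to another cluster name.

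Of the 7 members, Tnfrsf9 varied most between clusters relative to its own lowest level. Its pooled level was lowest in Tn at 11.9 CPM (95% Poisson interval 9.96 to 14.2) and highest in TIM-3+ Tex at 261 CPM (251 to 271). Between them lay Tcm (44.4 CPM), GzmB+ Teff (65.3), transitory Teff (121), GzmA+ Tex (145), cycling cells (161) and TIGIT+ Teff (183). No interval overlapped that of the next cluster in this order. In libraries 1 to 4, TIM-3+ Tex had 294, 259.7, 475 and 196 CPM and Tn had 13.3, 9.59, 8.19 and 15.9 CPM, so the clusters did not overlap. The highest TIM-3+ Tex value came from the 31 cells of library 3. The order in the middle was less firm, since Tcm was above GzmB+ Teff in 1 library, transitory Teff above GzmA+ Tex in 1, GzmA+ Tex above cycling cells in 1, and cycling cells above TIGIT+ Teff in 2.

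Tnfrsf4 was carried by few UMIs, 1098 over all cells. Pooled levels were 1.93 CPM in Tn and 2.11 CPM in Tcm, whose intervals overlapped, and from 7.06 CPM in GzmB+ Teff to 21.1 CPM in TIM-3+ Tex and 22.5 CPM in transitory Teff. Those last values also overlapped. Libraries differed widely in transitory Teff, with 8.18, 30.3, 3.68 and 33.4 CPM in libraries 1 to 4, a 9.06-fold range. Libraries 2 and 4 were high and libraries 1 and 3 low, with no overlap of their intervals. In TIM-3+ Tex the same libraries had 17.5, 19.5, 9.37 and 27.9 CPM. The 10 transitory Teff cells with the most Tnfrsf4 UMIs held 42.8% of those of the cluster, and the highest cell had 21. For the other members the 10 highest transitory Teff cells held 3.17% to 12.8%.

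Tnfrsf18 was present throughout and spanned a narrow range. GITR is carried at low levels by resting T cells and at high levels by Tregs. It was highest in TIM-3+ Tex (166 CPM) and Tcm (155 CPM) and lowest in Tn (89.2 CPM) and cycling cells (99.2 CPM). GzmA+ Tex (132 CPM), TIGIT+ Teff (127), transitory Teff (125) and GzmB+ Teff (110.3) lay between. The values from transitory Teff to GzmA+ Tex had overlapping neighboring intervals, as did those of Tcm and TIM-3+ Tex. Tcm was at 157, 154, 146 and 157 CPM in libraries 1 to 4, above Tn in each, where the values were 100.5, 77.9, 81.2 and 95.7 CPM.

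Tnfrsf1b, which binds TNF and lymphotoxin-α, was highest in TIGIT+ Teff at 134 CPM (125 to 143). TIM-3+ Tex followed with 102 CPM and GzmA+ Tex with 73.3 CPM. Tn was lowest at 21.4 CPM. In libraries 1 to 4, TIGIT+ Teff had 151, 135, 115 and 92.4 CPM, against 114, 89.5, 84.4 and 92.8 CPM in TIM-3+ Tex, so in library 4 the order was not kept. Cd27, the receptor for CD70, ran from 177 CPM in Tn to 282 CPM in TIM-3+ Tex. TIM-3+ Tex had 290.1, 259, 322 and 281 CPM in libraries 1 to 4 and Tn 175, 172, 171 and 188 CPM. From Tcm (195 CPM) over GzmB+ Teff (210.0 CPM) and cycling cells (218 CPM) to GzmA+ Tex (229.6 CPM) neighboring intervals of Cd27 overlapped, as they did from transitory Teff (252 CPM) over TIGIT+ Teff (260.2 CPM) to TIM-3+ Tex.

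The CD28 family is made up here of Cd28 and Icos. Cd28 was highest in TIGIT+ Teff (159 CPM) and transitory Teff (153 CPM), whose intervals overlapped, and lowest in TIM-3+ Tex (88.3 CPM) and Tcm (69.3 CPM). GzmA+ Tex, cycling cells, GzmB+ Teff and Tn lay between 98.0 and 106 CPM, and neighbors in this order could not be told apart. Transitory Teff had 129, 185, 164 and 149 CPM of Cd28 in libraries 1 to 4 and TIM-3+ Tex had 71.2, 122, 103 and 92.8 CPM, lower in each library. Icos was highest in transitory Teff (61.7 CPM) and TIGIT+ Teff (57.3 CPM), followed by TIM-3+ Tex (48.2 CPM), and lowest in Tn (19.6 CPM) and then Tcm (interval 13.5 to 16.6 CPM). Neighboring intervals overlapped from transitory Teff down to GzmB+ Teff. Its values in transitory Teff were 60.01, 58.9, 53.1 and 67.0 CPM in libraries 1 to 4 and in Tcm 17.0, 15.7, 16.9 and 12.5 CPM, so the clusters did not overlap.

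**Figure D1:**
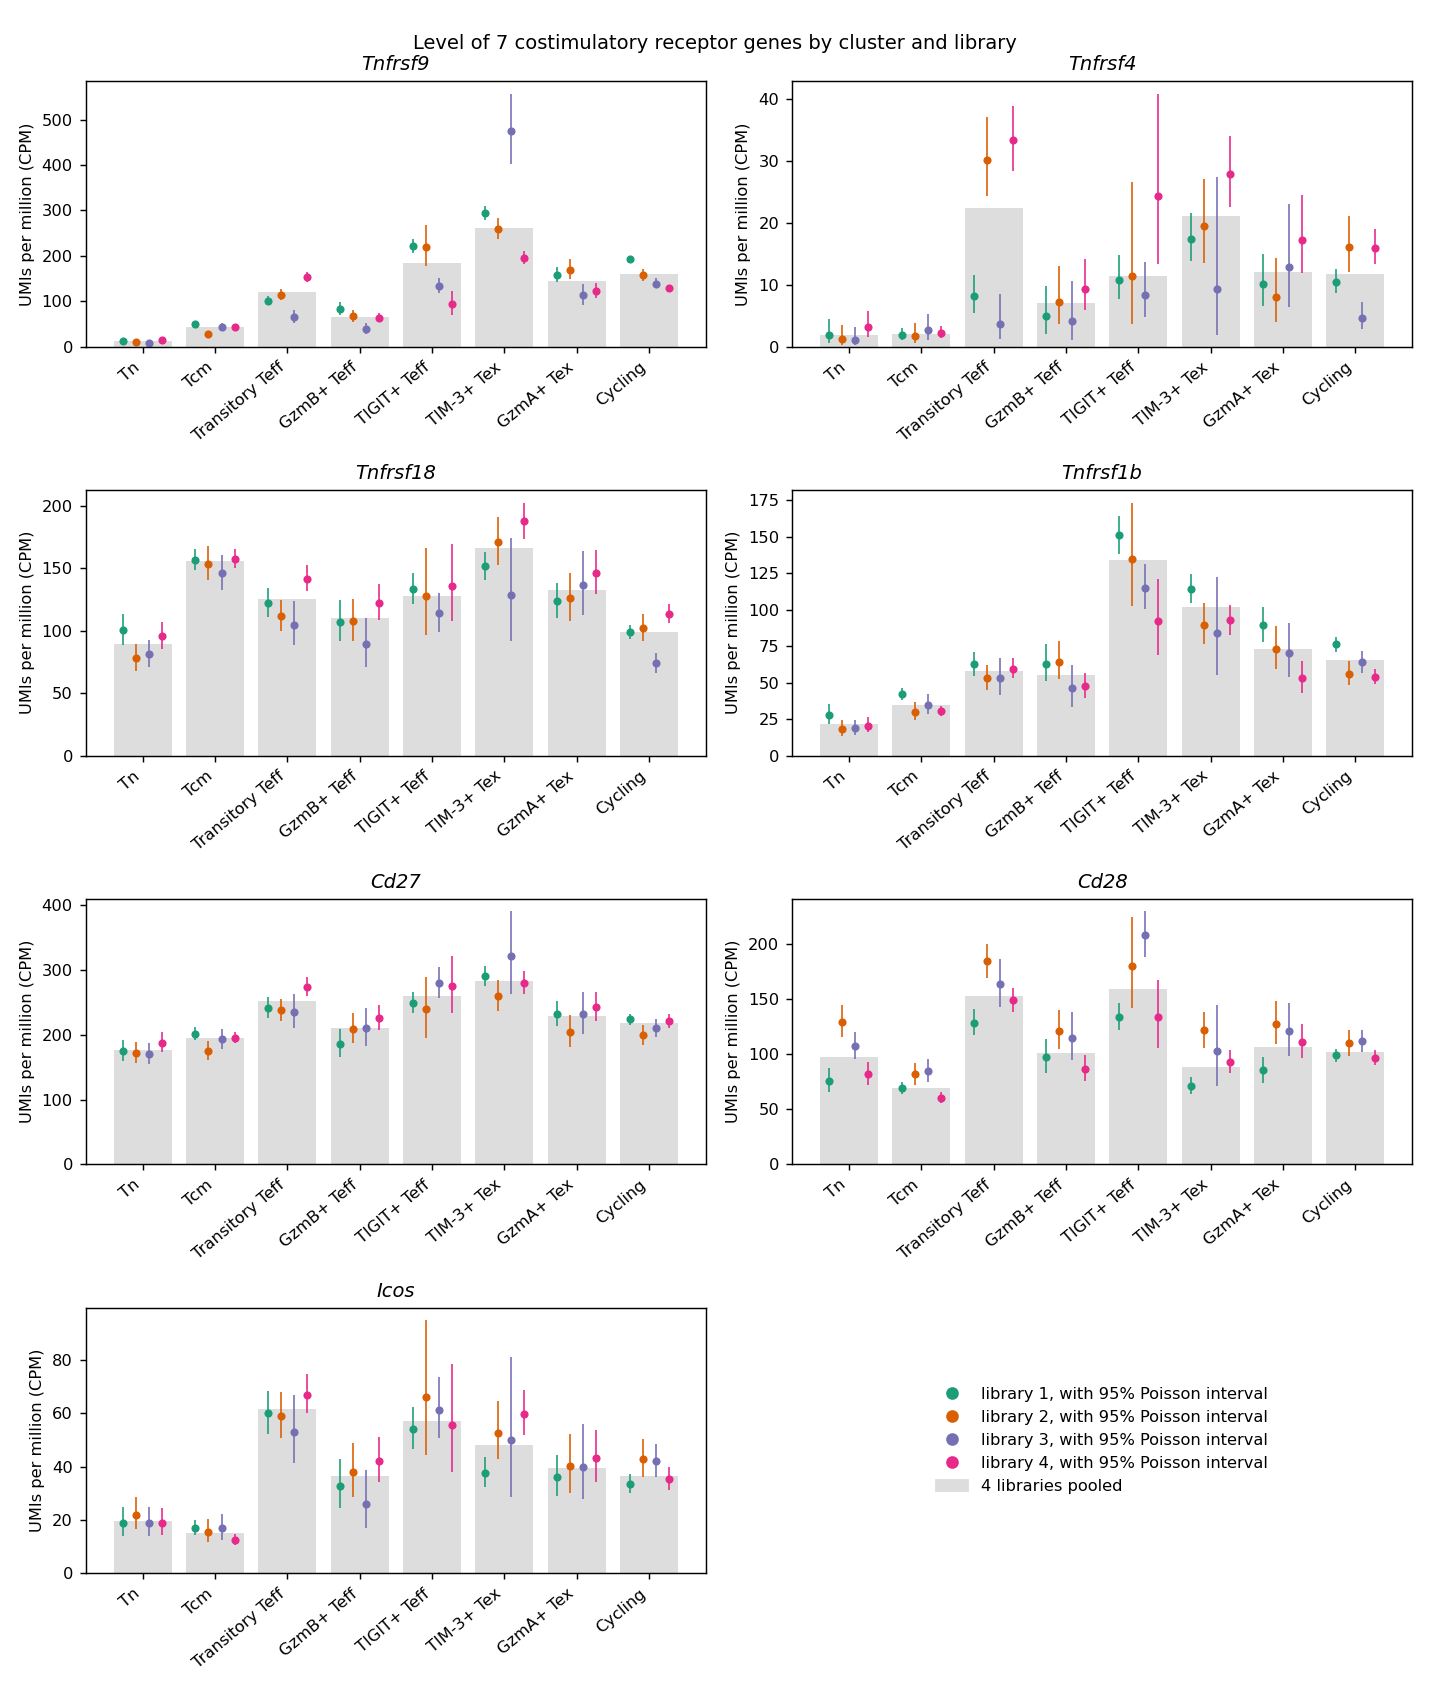
Level in CPM (y axis, linear from 0) of each member in the 8 clusters (x axis), with gray bars for the 4 libraries pooled and colored points for libraries 1 to 4 with 95% Poisson intervals. Tnfrsf9 rises from 11.9 CPM in Tn to 261 CPM in TIM-3+ Tex, Cd28 is higher in transitory Teff (153 CPM) than in TIM-3+ Tex (88.3 CPM), and Tnfrsf4 in transitory Teff ranges from 3.68 to 33.4 CPM between libraries.

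Shares of cells with a UMI were then compared at equal depth. Each cell was thinned at random to 2500 UMIs, and all 11754 cells had enough. Tnfrsf9 was then found in 2.68% of Tn cells (95% Clopper-Pearson interval 1.89% to 3.69%), 15.4% of transitory Teff, 28.2% of TIGIT+ Teff and 35.8% of TIM-3+ Tex (32.9% to 38.8%). Unthinned, the shares were 7.30% in Tn and 64.3% in TIM-3+ Tex, with median depths of 7834 and 8433.5 UMIs. The sort held no cell type that lacks these genes, so the part of free RNA in these shares was not tested. Tnfrsf4 was found in 0.596% of Tn, 0.527% of Tcm and 3.98% of TIM-3+ Tex cells after thinning (1.34%, 1.49% and 10.3% unthinned). Tnfrsf1b ran from 4.84% in Tn to 32.1% in TIGIT+ Teff (15.4% and 57.2% unthinned). Icos was found in 3.22% of Tcm, 3.87% of Tn, 13.5% of transitory Teff and 13.7% of TIGIT+ Teff cells (10.0%, 13.6%, 28.4% and 28.6% unthinned). Cd27 was found in 35.7% of Tn cells and 48.5% of TIM-3+ Tex (71.2% and 86.0% unthinned). Cd28 was found in 15.9% of Tcm, 18.7% of TIM-3+ Tex and 36.2% of TIGIT+ Teff cells (37.8%, 47.3% and 61.6% unthinned). Tnfrsf18 lay between 20.9% in cycling cells and 36.3% in TIM-3+ Tex (64.5% and 71.6% unthinned). At this depth, 3 or more of the 7 members were found together in 3.43% of Tn, 6.44% of Tcm, 15.8% of transitory Teff, 15.2% of cycling and 24.8% of TIM-3+ Tex cells.

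**Figure D2:**
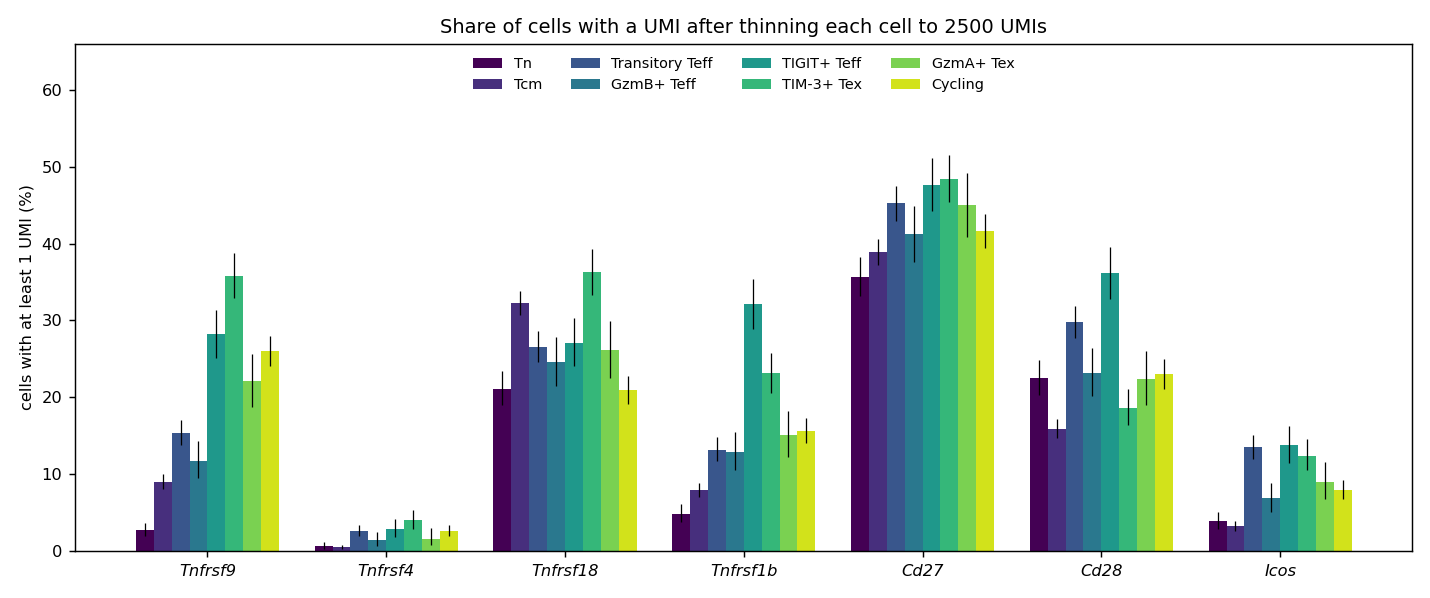
Share of cells with at least 1 UMI of each member (y axis, percent) after thinning each cell to 2500 UMIs, for the 8 clusters in the order of the legend, with 95% Clopper-Pearson intervals. Tnfrsf9 goes from 2.68% in Tn to 35.8% in TIM-3+ Tex, and Tnfrsf4 stays at or below 3.98% in every cluster.

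Effector and exhausted cells were first set against naive cells, 5066 cells of the 5 Teff and Tex clusters against 1342 Tn cells. A gene was counted as changed in size when its pooled CPM differed at least 2-fold and it had 100 UMIs or more over both sides. By this rule 4 of 7 members were higher and 0 lower, whereas of the 10203 genes counted 14.7% differed, 13.1% higher and 1.65% lower. Tnfrsf9 was higher by 3.74 on the log2 scale (3.49 to 4.00, 13.3-fold), Tnfrsf4 by 3.10 (2.48 to 3.80), Tnfrsf1b by 1.94 (1.75 to 2.14) and Icos by 1.37 (1.16 to 1.57). In libraries 1 to 4 the log2 ratio of Tnfrsf9 was 3.85, 3.99, 3.83 and 3.15 and that of Icos 1.29, 1.21, 1.37 and 1.58. The remaining members stayed under 2-fold, with log2 ratios of 0.59 for Tnfrsf18, 0.50 for Cd27 and 0.33 for Cd28 (0.24 to 0.43). Thinned to equal depth, the ratio of Tnfrsf4 was 2.29. For all 7 members the pooled interval lay above 0, as it did for 58.7% of all genes, and the interval of each library did so too. The median log2 ratio was 1.37 over the members and 0.31 over all genes.

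The receptors' partners were taken from 4 lists. Of the 9 ligands, 7 had enough UMIs and 4 were at least 2-fold higher in Teff and Tex than in Tn: Tnfsf4 (OX40L, log2 ratio 2.55), Tnfsf9 (4-1BBL, 2.30), Cd86 (ligand of CD28, 2.08) and Cd80, which had 0 UMIs in Tn and 3.65 CPM in Teff and Tex. Macrophages also carry Cd80 and Cd86, and all 13 macrophage genes with enough UMIs were at least 2-fold higher here (median log2 ratio 5.13), whose part was not tested. Tnfsf18, the ligand of GITR, was not among the genes of the table. Among 14 other TNF receptors, 10 had enough UMIs, of which Tnfrsf13c (1.95) and Tnfrsf1a (1.25) were higher and 4 lower, led by Tnfrsf22 (−1.85) and Tnfrsf26 (−1.53). Of the 21 TRAF and NF-κB genes 2 were higher, the NF-κB feedback inhibitor Tnfaip3 (1.48) and the adaptor Traf5 (1.07), and 0 of 15 CD28 and ICOS signaling genes passed 2-fold. The medians of the 4 lists were 2.08, −0.02, 0.47 and 0.18 on the log2 scale.

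Tcm cells also had more Tnfrsf9 than Tn but less Cd28 and Icos. Against Tn, 1 of the 6 members with enough UMIs passed 2-fold, Tnfrsf9 (log2 ratio 1.90, 1.64 to 2.17), whereas 5.91% of 9404 genes did (4.62% higher, 1.3% lower). Its ratio was 1.94, 1.55, 2.44 and 1.48 in libraries 1 to 4. Tnfrsf18 (0.80) and Tnfrsf1b (0.71) had intervals above 0 in each library. Cd28 (−0.50, −0.61 to −0.39) and Icos (−0.39, −0.63 to −0.14) were lower in Tcm in every library, although the interval included 0 in library 1 for Cd28 and in libraries 1, 2 and 3 for Icos. Tnfrsf4 had too few UMIs to be counted and its log2 ratio of 0.13 ran from −0.62 to 0.93. The median over the 6 members was 0.42 and over all genes 0.13. The part of the cells with low Cd8b1 and NK genes in these values was not tested. Of the partners, Icosl (1.55), Tnfrsf1a (1.25), Tnfrsf10b (1.15), Nfkb2 (1.04) and Cd86 (1.01) were at least 2-fold higher.

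TIM-3+ Tex cells and transitory Teff cells differed in opposite ways for 4-1BB and CD28. Against 1891 transitory Teff cells, 1056 TIM-3+ Tex cells had 1.11 more Tnfrsf9 on the log2 scale (1.02 to 1.20), the 1 of 7 members past 2-fold, while 2.96% of 8987 genes passed it (1.62% higher, 1.34% lower). The log2 ratio of Tnfrsf9 was 1.54, 1.18, 2.84 and 0.35 in libraries 1 to 4, and without library 1 the pooled ratio was 0.86, below 2-fold. Tnfrsf1b (0.81, 0.67 to 0.94) and Tnfrsf18 (0.41) were also above 0 in all 4 libraries, with an interval that included 0 in library 3 for both. The pooled ratio of Cd28 was −0.80 (−0.91 to −0.68), with −0.86, −0.60, −0.67 and −0.68 in libraries 1 to 4. Icos was lower (−0.36, −0.52 to −0.19), mostly in library 1 (−0.67), as the intervals of libraries 2, 3 and 4 included 0, and with cells assigned by cluster number its ratio was 0.03. Cd27 differed by 0.16 and Tnfrsf4 by −0.09 (−0.35 to 0.17), with 1.09, −0.64, 1.35 and −0.26 in libraries 1 to 4 and 1.53 with cells assigned by cluster number. The median of the members was 0.16 and that of all genes 0.05. The ligands Lta (−1.34) and Tnfsf9 (−1.25) were at least 2-fold lower in TIM-3+ Tex, as was the receptor Tnfrsf13b (−1.26), and 0 of 36 genes of the signaling lists passed.

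TIGIT+ Teff cells had more TNFR2 transcript than transitory Teff. In 816 cells its log2 ratio to transitory Teff was 1.20 (1.06 to 1.35), with 1.27, 1.34, 1.12 and 0.63 in libraries 1 to 4, the 1 of 7 members past 2-fold where 18.3% of 8956 genes passed (17.8% higher, 0.569% lower), so the share of members was not above that of all genes. Tnfrsf9 was higher by 0.61, but its ratio was 1.13, 0.93 and 1.01 in libraries 1, 2 and 3 and −0.71 (−1.13 to −0.31) in library 4. The pooled ratio of Tnfrsf4 was −0.98, with 0.41, −1.41, 1.19 and −0.45 in libraries 1 to 4, −0.25 after thinning and 0.66 with cells assigned by cluster number. Cd28 (0.05), Cd27 (0.04), Tnfrsf18 (0.02) and Icos (−0.11) had intervals that included 0. The median was 0.04 over the members and 0.36 over all genes. In the same comparison 3 of 21 TRAF and NF-κB genes were at least 2-fold higher, Cyld (1.21), Traf3 (1.17) and Tnfaip3 (1.11). So were 2 of 15 CD28 and ICOS signaling genes, Malt1 (1.44) and Pik3ca (1.06). Neither share was above the 17.8% of all genes. The part of the higher Malat1 of this cluster in these values was not tested.

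For 6 of the 7 members the interval of GzmB+ Teff against transitory Teff lay below 0, as it did for 29.8% of all genes. Tnfrsf4 had a log2 ratio of −1.67 (−2.15 to −1.22), with −0.72, −2.05, 0.18 and −1.83 in libraries 1 to 4. It was the 1 of 7 past 2-fold, against 3.95% of 8649 genes (2.43% higher, 1.53% lower). Tnfrsf9 (−0.88), Icos (−0.76), Cd28 (−0.59), Cd27 (−0.26) and Tnfrsf18 (−0.18) were the other 5, and the interval of Tnfrsf1b (−0.08) included 0. The ratios of Icos were −0.87, −0.64, −1.02 and −0.67 and those of Cd28 −0.40, −0.60, −0.51 and −0.78 in libraries 1 to 4, below 0 in each. The median was −0.59 over the members and −0.12 over all genes. The ligands Tnfsf4 (−2.29) and Tnfsf9 (−1.33) were lower and Cd86 (1.08) was higher. With cells assigned by cluster number, 4 of the 6 lost this direction, Tnfrsf4 at 2.002, Tnfrsf9 at 0.88, Icos at 0.12 and Tnfrsf18 at 0.01, while Cd28 was at −0.20 and Cd27 at −0.03. In that setting 205 cells named transitory Teff count as GzmB+ Teff and 287 others as TIM-3+ Tex.

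GzmA+ Tex cells had 0 of 7 members past 2-fold against transitory Teff, where 2.49% of 8831 genes passed (2.08% higher, 0.408% lower). Cd28 (−0.53) and Icos (−0.64) had ratios below 0 in all 4 libraries, with an interval that included 0 for Icos in library 3. The ratio of Tnfrsf9 was 0.65, 0.57 and 0.77 in libraries 1, 2 and 3 and −0.31 in library 4. In this cluster 86.7% of cells had 3 or more UMIs of 19 macrophage, B and plasma cell genes. Without cells that had 3 or more UMIs of the planned list of 23 such genes, the pooled ratio of Tnfrsf9 changed from 0.27 to −0.22, that of Icos to −2.22, past 2-fold, and that of Cd28 to −0.04. With the 19 genes, a list shortened after the values were seen, the ratios were −0.17, −1.09 and −0.63. Either list left a small part of the GzmA+ Tex cells, so these ratios rest on few UMIs. With cells assigned by cluster number Tnfrsf4 changed from −0.89 to 0.75.

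**Figure D3:**
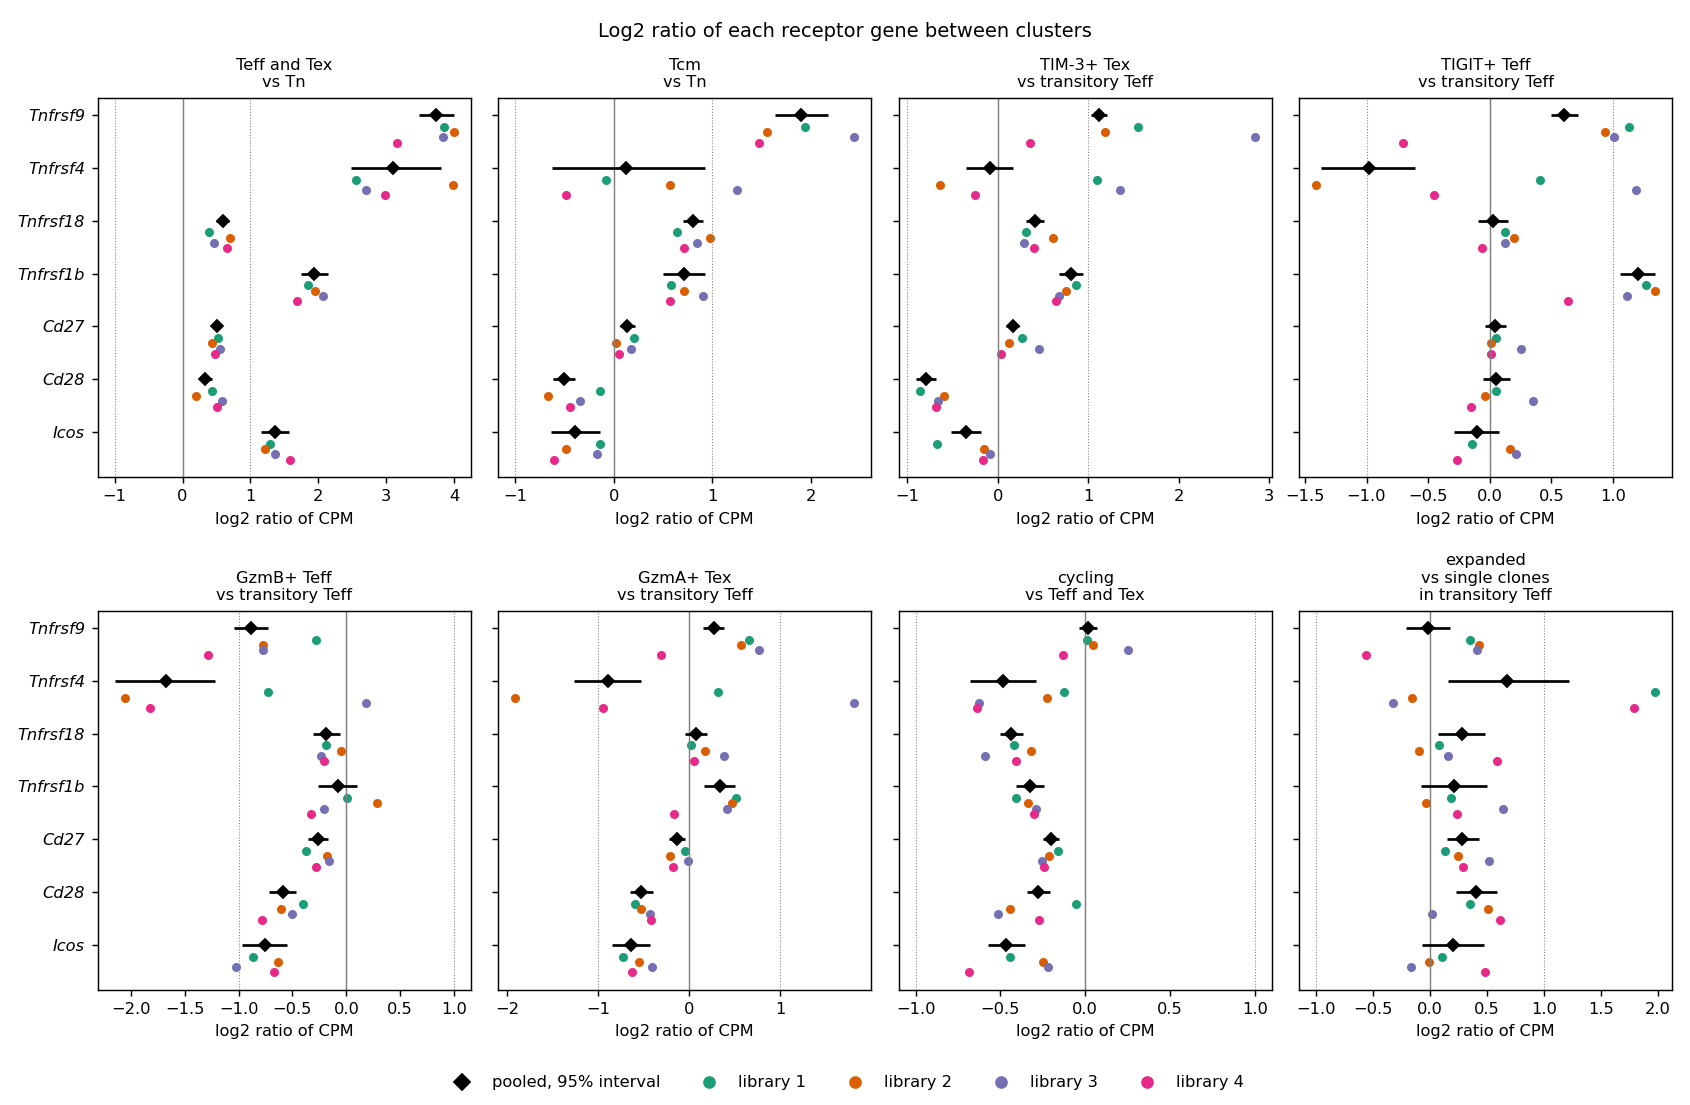
Log2 ratio of CPM (x axis, its range differing between panels) of the 7 members (y axis) in 8 comparisons, with black diamonds for the pooled ratio and its 95% interval, colored points for libraries 1 to 4 and dotted lines at 2-fold. All members lie above 0 in Teff and Tex against Tn, whereas in TIM-3+ Tex against transitory Teff Tnfrsf9 lies at 1.11 and Cd28 at −0.80, and library 4 is apart for Tnfrsf9 in TIGIT+ Teff (−0.71).

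Within transitory Teff, most OX40 transcripts were found in a small group of cells, in which 4-1BB and ICOS transcripts were also higher than in the rest. Of its 1891 cells, 1324 bear cluster number 4, 287 number 5, which belongs mostly to TIM-3+ Tex, and 205 (10.8%) number 6, which belongs mostly to GzmB+ Teff. This split was chosen after the values were seen. The 205 cells held 68.2% of the Tnfrsf4 UMIs of the cluster (199 of 292), 39.8% of those of Tnfrsf9 and 28.7% of those of Icos, with 16.1% of all UMIs. The cells with number 4 held 19.5% of the Tnfrsf4, 37.5% of the Tnfrsf9 and 52.4% of the Icos UMIs. Median depth was 9234 UMIs per cell with number 6 and 5096 with number 4. Tnfrsf9 was at 299 CPM with number 6, 176 with number 5 and 71.0 with number 4. In libraries 1 to 4 the cells with number 6 had 309, 318, 311 and 287 CPM of Tnfrsf9, with overlapping intervals, and the whole cluster ranged from 66.3 to 154 CPM. The cells with number 4 also differed between libraries, with 51.0, 66.2, 45.9 and 102 CPM. There the interval of library 4 (90.2 to 114 CPM) lay above those of the other libraries. Library 3 had 9 of the cells with number 6 and library 4 had 106. Tnfrsf4 was at 95.2 CPM with number 6 (82.4 to 109) and 6.90 CPM with number 4, and libraries 1 to 4 had 41.1, 179.99, 0 and 99.9 CPM with number 6, where the 0 of library 3 allows up to 44.2 CPM.

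Between the numbers, 3 of 7 members were at least 2-fold higher in the cells with number 6 than in those with number 4, Tnfrsf4 (log2 ratio 3.79, 3.36 to 4.24), Tnfrsf9 (2.07, 1.91 to 2.24) and Icos (1.11, 0.88 to 1.35), where 5.13% of 7401 genes differed (2.22% higher, 2.92% lower). Cd28 was at 209 and 144 CPM (0.54), Cd27 at 295 and 235 CPM (0.32), Tnfrsf18 at 148 and 119 CPM (0.32) and Tnfrsf1b at 57.9 and 54.5 CPM (0.09, −0.21 to 0.38). At equal depth, 43.9% of the cells with number 6 and 8.99% of those with number 4 had a Tnfrsf9 UMI, 11.2% and 1.21% a Tnfrsf4 UMI and 25.4% and 11.8% an Icos UMI (unthinned 70.7% and 18.4%, 24.4% and 2.87%, and 59.5% and 23.9%). The OX40 ligand Tnfsf4 was also higher, at 45.9 CPM against 3.87 CPM. Lta (1.90) and Tnf (1.26) were also at least 2-fold higher, as was Nfkb2 (1.27). Against the 681 cells named GzmB+ Teff that share number 6, the 205 cells had more Tnfrsf4 (3.85), Tnfrsf9 (2.17), Icos (1.60) and Cd28 (1.08), 4 of 7 members where 7.33% of 6700 genes differed (3.18% higher, 4.15% lower). The macrophage genes summed to 129 CPM with number 6 and 87.4 CPM with number 4, and the 6 CD8+ T cell genes to 6266 and 6662 CPM. Within that sum, Cd8b1 was lower with number 6 (852 against 1447 CPM) and Cd8a higher (829 against 672 CPM).

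Ranked by ratio, Tnfrsf4 was the 7th gene of the cells with number 6 over those with number 4, among genes with 100 UMIs. The neuropeptide precursor Penk led (210.5 against 7.502 CPM), and the list of 20 also held the ligand Tnfsf4 (rank 9), the TCR-induced factor Egr2 (69.4 against 8.71 CPM), the transcription factor Bcl6 (34.4 against 3.75 CPM), the chemokine Xcl1 (2412 against 305 CPM), the checkpoint ligand Cd200 (73.7 against 15.1 CPM) and the chemokine receptor Cxcr5 (84.2 against 17.5 CPM). Tnfrsf4 and Tnfsf4 were higher in the cells with number 6 in 3 of 4 libraries, and the other genes named so far in 4 of 4. Cxcl10 ranked 2nd (82.3 against 4.36 CPM), was higher in 3 of 4 libraries and stood at 228 CPM in GzmB+ Teff. These genes were named after their values were seen, so their agreement over libraries does not describe the whole list.

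**Figure D4:**
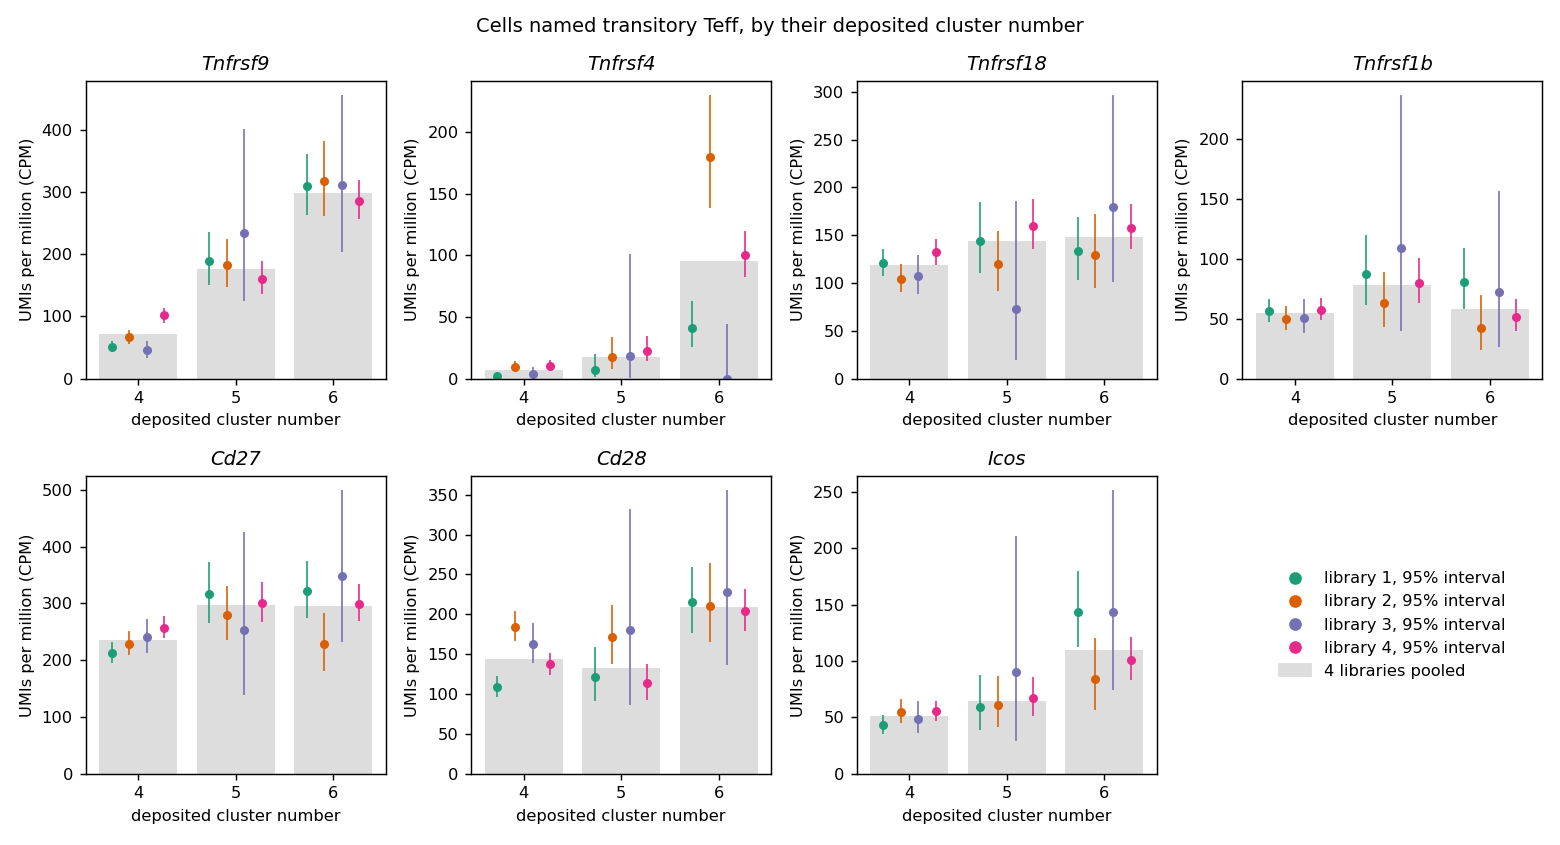
Level in CPM (y axis, linear from 0) of each member in the cells named transitory Teff, split by deposited cluster number (x axis), with gray bars for the 4 libraries pooled and points for libraries 1 to 4 with 95% Poisson intervals. Tnfrsf9 rises from 71.0 to 176 and 299 CPM from number 4 to 5 and 6, Tnfrsf4 is at 95.2 CPM with number 6, and Tnfrsf1b is similar with numbers 4 and 6.

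Cycling cells had slightly lower pooled levels of 6 members, whereas the pooled level of 4-1BB was close to that of the other cells. Against the 5 Teff and Tex clusters, 1928 cycling cells had 0 of 7 members past 2-fold, where 8.26% of 10557 genes passed (5.77% higher, 2.49% lower). Tnfrsf9 was at 161 and 159 CPM, a log2 ratio of 0.02 (−0.04 to 0.07). Libraries differed here, with a ratio of 0.25 in library 3 and −0.13 in library 4, each with an interval that excluded 0. Its levels were 192 and 191 CPM in library 1 and 158 and 153 CPM in library 2. The ratios of the other members ran from −0.48 for Tnfrsf4 to −0.20 for Cd27, with all 6 pooled intervals below 0, as were those of 32.6% of all genes. Tnfrsf18 (−0.44), Tnfrsf1b (−0.33) and Cd27 (−0.20) had intervals below 0 in each library. The median over the members was −0.33 and over all genes 0.00, and 17 of the 21 TRAF and NF-κB genes also had intervals below 0. Cycling cells also had the highest depth per cell, and its part was not tested.

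Clonal expansion within transitory Teff was compared for cells with a TCR call, 1076 cells of clones with 2 or more cells in the library and 368 cells of clones seen once. Cells of expanded clones share their clone and are not independent. Here 0 of 7 members passed 2-fold, against 1.58% of 6964 genes (0.933% higher, 0.646% lower). The median log2 ratio was 0.28 over the members, 0.32 over the 6 CD8+ T cell genes and 0.01 over all genes. Pooled intervals lay above 0 for 4 of 7 members, 6 of 6 CD8+ T cell genes and 788 of 6964 genes. Cd28 was at 180.1 CPM in expanded and 136 CPM in single clones (log2 ratio 0.41, 0.23 to 0.59), with 0.35, 0.51, 0.01 and 0.62 in libraries 1 to 4. Cd27 (0.29, 0.15 to 0.43) was above 0 in all 4 libraries, with intervals that included 0 in libraries 1 and 2. Tnfrsf18 (0.28) was below 0 in library 2. Tnfrsf4 was at 24.9 and 15.5 CPM (0.68, 0.16 to 1.22), with 1.98, −0.16, −0.32 and 1.79 in libraries 1 to 4, and the pooled ratio moved with single libraries and cells, at 1.74 without library 2 (past 2-fold), 0.03 without library 4, and −0.36 without cells holding 3 or more UMIs of the 23 macrophage, B and plasma cell genes (0.12 by the shorter list of 19). The pooled ratio of Tnfrsf9 was −0.02 (−0.21 to 0.18), with 0.35, 0.43 and 0.42 in libraries 1, 2 and 3 and −0.56 in library 4. The ligand Tnfsf4 was at 14.9 and 3.99 CPM (1.90, 0.96 to 3.01).

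Libraries differed more for some members than for others. Of 48 pairs of libraries compared within a cluster, the Poisson intervals did not overlap in 28 for Tnfrsf9, 17 for Cd28, 9 each for Tnfrsf4 and Tnfrsf1b, 7 for Tnfrsf18, 3 for Cd27 and 1 for Icos. Cd28 was highest in library 2 in 5 clusters and in library 3 in the other 3, and lowest in library 1 in 5 clusters and library 4 in 3. Tnfrsf18 was highest in library 4 in 7 of 8 clusters and Tnfrsf1b in library 1 in 7. These counts also depend on the number of UMIs, 12366 for Tnfrsf9 and 1098 for Tnfrsf4 over all cells. They were made for the members alone, so they do not show whether the members differ from other genes in this. Cd27 varied least, by at most 1.24-fold between the highest and the lowest library of a cluster. The largest such range was 2.42-fold for Tnfrsf9 and 9.06-fold for Tnfrsf4. Treatment and library cannot be told apart in these data.

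With all cells of a cluster counted, pairs of members were found together slightly more often than the product of their shares gives. Ratios for pairs of other genes are not at hand, so this excess does not set the members apart. At 2500 UMIs per cell, 17 of 21 pairs in transitory Teff, 15 in TIM-3+ Tex and 15 in cycling cells were above the product, with median ratios of 1.06, 1.04 and 1.11. Tnfrsf4 with its neighbor Tnfrsf18 had the highest ratio in transitory Teff, 27 cells against 13.4 from the product (2.02), and was above it in 4 of 4 libraries. Tnfrsf4 with Tnfrsf9 followed at 1.75 (14 against 7.99 cells). Cd28 with Icos was at 1.49 in TIM-3+ Tex, above the product in 2 of 4 libraries, whereas Cd28 with Tnfrsf9 was at 0.80. Counts for Tnfrsf4 were small. With 1 cell per clonotype, 14, 12 and 10 of 21 pairs were above the product in the 3 clusters, with median ratios of 1.10, 1.08 and 0.97. Cycling cells thus had no excess in that setting. The named ratios were then 2.37 for Tnfrsf4 with Tnfrsf18 and 0.97 for Tnfrsf4 with Tnfrsf9 (2 against 2.06 cells). Cd28 with Icos was at 1.08 and Cd28 with Tnfrsf9 at 0.76.

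**Figure D5:**
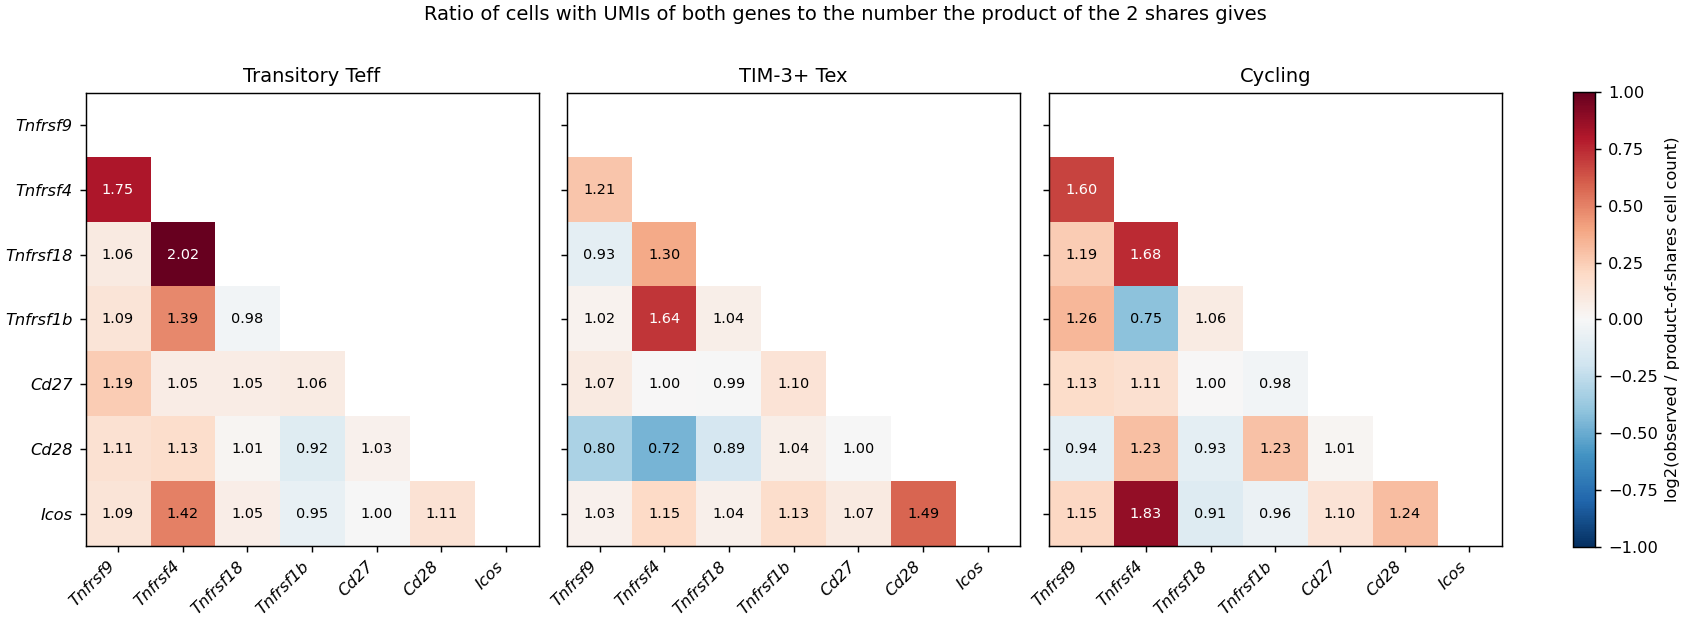
Ratio of the number of cells with UMIs of both genes to the number given by the product of the 2 shares, for each pair of members in 3 clusters at 2500 UMIs per cell (color on a log2 scale, ratio printed in each field). The highest field in transitory Teff is Tnfrsf4 with Tnfrsf18 at 2.02, and in TIM-3+ Tex Cd28 with Icos is at 1.49 and Cd28 with Tnfrsf9 at 0.80.

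Across 32 values per gene, 1 for each cluster and library, the genes most like each member were ranked by Pearson's r of log2(CPM + 10) among 4077 genes. The points share clusters, libraries and cells, so r is a description. Tnfrsf9 was most like Mmd (0.96), the TCR-induced factor Nr4a2 (0.958) and the chemokine Ccl3 (0.953). Tnfrsf1b was most like Nfatc1, Trps1 and Ttc39b (each 0.95). Icos was most like the inhibitory receptors Ctla4 (0.912) and Pdcd1 (0.896), and then Tspan3 (0.895). Cd27 was most like Ndfip1 (0.915), Sirt2 (0.907) and Ociad1 (0.891). Tnfrsf4 was most like the transcription factor Maf (0.85), 2310001H17Rik (0.84) and the adaptor Sh2d1a (0.82). Tnfrsf18 was most like the cystatin Cst7 (0.83), Zcchc18 (0.82) and Gyg (0.79), and Cd28 most like Slc4a7 (0.76), Icos (0.72) and Clint1 (0.71). Among the members themselves r ran from −0.22 for Cd28 with Tnfrsf18 to 0.88 for Tnfrsf1b with Tnfrsf9.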

How the data were processed

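CD8+ T cells sorted from BM were profiled by 5′ single-cell RNA and TCR sequencing, 1 library per treatment group of 5 pooled mice. The submitters' processing notes name Cell Ranger 7.00 and mm10. Per the methods, reads were downsampled to similar depth across libraries, filters on UMIs, mitochondrial RNA and detection of Cd3e, Cd3g and Cd8a were applied, and Leiden clusters were made in Monocle3. The deposited expression table holds raw UMI counts per gene and cell. The deposited cell table gives each cell's UMI count, its mitochondrial share as a fraction (not used further), library number, cluster name and cluster number. Clonotypes are those the authors called for 7961 cells. Doublet removal is not stated in the sources used here and none was done here.

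Genes were named by GENCODE M21 (17534 of 17561). Levels are CPM from UMI sums per cluster, pooled and per library, with exact Poisson intervals. Log2 ratios have exact conditional binomial intervals, all at 95%. Ratios of genes with 100 UMIs or more over both sides were counted from 2-fold. Shares were taken after thinning to 2500 UMIs (seed 7). No test was run, since each group is 1 library, libraries are not tied to treatments and clusters rest on the same values. The ratio and thinning code was tested on simulated data. The genes named are the members, list genes past 2-fold and the 3 genes most like each member (among genes of 50 CPM or more in at least 1 cluster), and the genes of the cells with number 6 were chosen after their values were seen. Members and lists were chosen with earlier results of these data known. Alternatives were the mean of each cell's CPM, thinning, cluster numbers in place of names, 1 cell per clonotype, removal of cells with macrophage or B and plasma cell transcripts or with 2 TRB chains, each library left out, and the median of the libraries. Scripts ran in Python 3.11.15 with pandas 2.3.3, scipy 1.17.1 and numpy 2.4.6, and figures were drawn with matplotlib 3.10.9.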

Additional observations from a re-analysis of the deposited data

Results flagged for a closer look

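Of 56 pairings of a member with a comparison, 6 had libraries that moved in opposite directions, each with an interval that excluded 0. All 6 were of Tnfrsf9 or Tnfrsf4, and the values are log2 ratios of CPM. The share of all genes that meet this rule is not at hand, so the cases do not set the members apart. These differences between libraries were not tested, and the treatment of each library is not known here. Tnfrsf9 in TIGIT+ Teff against transitory Teff was 1.13, 0.93 and 1.01 in libraries 1, 2 and 3 and −0.71 in library 4. In GzmA+ Tex against transitory Teff it was 0.65, 0.57 and 0.77 in libraries 1, 2 and 3 and −0.31 in library 4. In cycling cells against Teff and Tex it was 0.25 in library 3 and −0.13 in library 4. In expanded against single clones of transitory Teff it was 0.43 in library 2 and −0.56 in library 4. Library 4 was thus the one below 0 in all 4 cases for Tnfrsf9. The cases are not separate, since transitory Teff cells enter each of them. Library 4 held 652 of the 1891 transitory Teff cells and 106 of the 205 with cluster number 6, whose part was not tested. Its transitory Teff cells with number 4 were at 102 CPM of Tnfrsf9, against 45.9 to 66.2 CPM in the other libraries. Tnfrsf4 in TIM-3+ Tex against transitory Teff was 1.09 in library 1 and −0.64 in library 2. In GzmA+ Tex against transitory Teff it was 1.81 in library 3 and −1.91 and −0.95 in libraries 2 and 4, and library 3 had 5 UMIs of Tnfrsf4 in transitory Teff.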

How the results depend on the processing

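Over the alternatives, 693 values of members in the 8 comparisons were recomputed, of which 551 stayed within the main interval, 141 moved outside it and 1 turned direction past 2-fold. Of the 693, 51 had the opposite sign to the main value. The number of members past 2-fold was the same under every alternative for Teff and Tex against Tn (4), Tcm against Tn (1) and cycling cells (0). With cells assigned by cluster number, the ratio of Tnfrsf4 in GzmB+ Teff against transitory Teff was 2.002, and the count rose to 2 in TIM-3+ Tex (Tnfrsf9 1.86, Tnfrsf4 1.53) and TIGIT+ Teff (with Tnfrsf9 at 1.37) and to 1 in GzmA+ Tex (Tnfrsf9 1.09) and expanded clones (Tnfrsf9 −1.04). Thinning gave 2 in TIGIT+ Teff and GzmB+ Teff and 1 in GzmA+ Tex. With 1 cell per clonotype there were 2 in TIGIT+ Teff and 3 in GzmB+ Teff (Tnfrsf9 −1.85, Tnfrsf4 −3.33, Icos −1.08). Without cells holding 3 or more macrophage, B or plasma cell UMIs there was 1 in GzmA+ Tex, Icos, at −2.22 by the full list of 23 genes and −1.09 by 19 genes, a list shortened after seeing the data. Few GzmA+ Tex cells were then left. Without cells with 2 TRB chains there was 1 in expanded clones (Tnfrsf4 1.86). Leaving out each library gave 0 to 1 in TIM-3+ Tex (0 without library 1), 1 to 2 in TIGIT+ Teff and in GzmB+ Teff (2 without library 1, with Tnfrsf4 at −1.23 and Tnfrsf9 at −1.11), 0 to 1 in GzmA+ Tex (1 without library 1 or 3, Tnfrsf4 −1.08 or −1.04) and 0 to 1 in expanded clones (1 without library 2). The cause was not tested. Each library holds both sides of a comparison, but no paired test over libraries was run, as no test was run at all. The ratios within each library stand in the report. Counts of Tnfrsf4 were low, with 21 UMIs in Tn.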
